A study of Mus musculus with 23 samples.

Results

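The genes described here are used as markers of bone marrow macrophages, and not all are confined to them. They include the C1q chain genes C1qa, C1qb and C1qc, the adhesion molecule Vcam1, the lysosomal protein Cd68 and the surface receptor Adgre1. The others are the scavenger receptors Mrc1 and Cd163 and the receptor kinases Axl and Mertk. The genes were taken as a list of 10 symbols out of 19938 on the array, each read by its only probe set that carries a single symbol. All 10 passed the filter on low values, which left 15542 genes to test. Adgre1 was above its array's 30th percentile on 16 of the 23 arrays, only 3 of them preleukemic, and Cd163 on 21.

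The mice were Pax5+/-, which have lost 1 copy of the B cell commitment factor Pax5, or wild type (WT), and every mouse received a single dose of 2 Gy at 2 months of age. Preleukemic pro-B and pre-B cells came from 7 Pax5+/- and 3 WT mice 3 weeks after the dose. Leukemic samples came from 10 Pax5+/- and 3 WT mice. Their titles name pro-B cells, their descriptions name leukemic marrow, and no sort, strain or sex is stated. The series design counts 4 WT leukemic mice, of which 3 are analysed here. Time after the dose is given for the preleukemic samples only, so age, time since the dose, B cell stage and cell isolation cannot be told apart from leukemia in either genotype.

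Marrow macrophages engulf dying cells and the nuclei expelled by erythroblasts, recycle iron and hold blood cells in place. They are the main source of C1q, whose A, B and C chains assemble into the molecule that starts the classical complement pathway and also coats dying cells. AXL and MERTK bind dying cells through bridging ligands, GAS6 for both and protein S for MERTK, and VCAM-1 binds integrins on blood cells. VCAM-1 is also made by marrow stroma and endothelium.

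C1qb, C1qc and C1qa are neighbours on mouse chromosome 4, in that order in the RefSeq annotation. The promoters of C1qb, C1qc and Cd68 are shown because C1qb and C1qc were the closest pair over the 10 Pax5+/- leukemias and because Cd68 behaved differently from them in the WT mice. Each line runs 5′ to 3′ on the gene's strand, from 250 bases before the start site to 50 after it, from the RefSeq promoter table for GRCm38.p6, which holds 7 of the 10 genes. Capitals mark GAGGAA or its reverse complement TTCCTC, the core of the purine box bound by ETS factors such as PU.1, and GTCAGC or GCTGAC, part of the Maf recognition element.
C1qb, chr4:136886151-136886450, minus strand: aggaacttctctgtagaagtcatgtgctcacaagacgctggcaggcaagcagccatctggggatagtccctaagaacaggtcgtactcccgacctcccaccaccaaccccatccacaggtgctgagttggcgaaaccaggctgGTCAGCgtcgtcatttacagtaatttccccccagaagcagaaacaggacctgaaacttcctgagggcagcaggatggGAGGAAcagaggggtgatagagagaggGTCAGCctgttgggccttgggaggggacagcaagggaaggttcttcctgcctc
C1qc, chr4:136892865-136893164, minus strand: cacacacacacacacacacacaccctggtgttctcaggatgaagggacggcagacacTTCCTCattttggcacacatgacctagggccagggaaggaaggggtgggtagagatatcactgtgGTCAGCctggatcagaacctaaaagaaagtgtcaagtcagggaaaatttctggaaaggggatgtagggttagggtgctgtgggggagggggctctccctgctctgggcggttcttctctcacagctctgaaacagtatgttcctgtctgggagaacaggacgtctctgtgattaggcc
Cd68, chr11:69666121-69666420, minus strand: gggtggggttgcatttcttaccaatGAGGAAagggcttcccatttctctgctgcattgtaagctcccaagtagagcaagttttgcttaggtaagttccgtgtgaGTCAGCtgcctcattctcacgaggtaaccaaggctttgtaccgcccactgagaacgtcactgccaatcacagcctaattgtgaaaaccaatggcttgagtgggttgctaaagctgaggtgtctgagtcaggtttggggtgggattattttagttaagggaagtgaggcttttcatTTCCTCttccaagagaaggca
Both strands were searched, and the motifs do not overlap in these windows. The purine box core lay in 5 of the 7 promoters and in 28.3% of all 32851 promoters of this length. The Maf element lay in 3 of 7, those printed, and in 15.7% of all. All 3 printed promoters held both motifs, as did 4.33% of all promoters. The motifs were picked after the sequences had been seen, and a match describes letters, not binding.

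The medians of the 23 arrays ran from 6.06 to 6.2 (log2), and precision is limited by how many arrays each group has. Pro-B and pre-B cell markers were well measured: all 11 exceeded the array median in each preleukemic sample, 10 did so in every Pax5+/- leukemia and 9 in every WT leukemia. WT preleukemic sample 20 stood apart from the other preleukemic samples in its mean of 14 neutrophil markers, at 10.6 on the log2 scale, against 6.15 to 6.81 in the other 9. Its erythroid, dendritic cell and T and NK cell means were also the highest of the preleukemic samples, at 8.715, 8.20 and 7.57. WT leukemias 15 and 17 had erythroid means of 9.32 and 9.41, against 6.775 in 14, and leukemia 15 had the lowest pro-B and pre-B cell mean of all samples, 8.54. WT stage differences are therefore also given without 15, 17 and 20 together where that changes a call. They are given as sizes only, because 14 is then the only WT leukemia. Xist exceeded Eif2s3y, a gene of the Y chromosome, in 5 of 10 Pax5+/- leukemias and 3 of 7 Pax5+/- preleukemic samples, but in 3 of 3 WT leukemias and 0 of 3 WT preleukemic samples. Sex and stage therefore cannot be told apart within the WT mice. Where sex is a covariate below, its term is estimated from the Pax5+/- mice alone. That term does not separate sex from stage in WT mice. Levels below are array signals on the log2 scale, and folds are 2 raised to a fitted log2 difference.

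The first comparison asked which macrophage genes separate Pax5+/- leukemias from irradiated Pax5+/- B cell precursors. All 10 genes were higher in leukemia, 9 of them over 2-fold. C1qb and Vcam1 rose most, C1qc followed, and Cd163 rose least. In bulk samples, more cells of a type and more RNA per cell cannot be told apart. Of all genes tested, 28.0% passed as higher, 36.5% passed as lower, and 6.87% passed as higher by over 2-fold. The median log2 difference of the 10 genes was 1.81, against -0.05 over all genes.

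**Figure D1:**
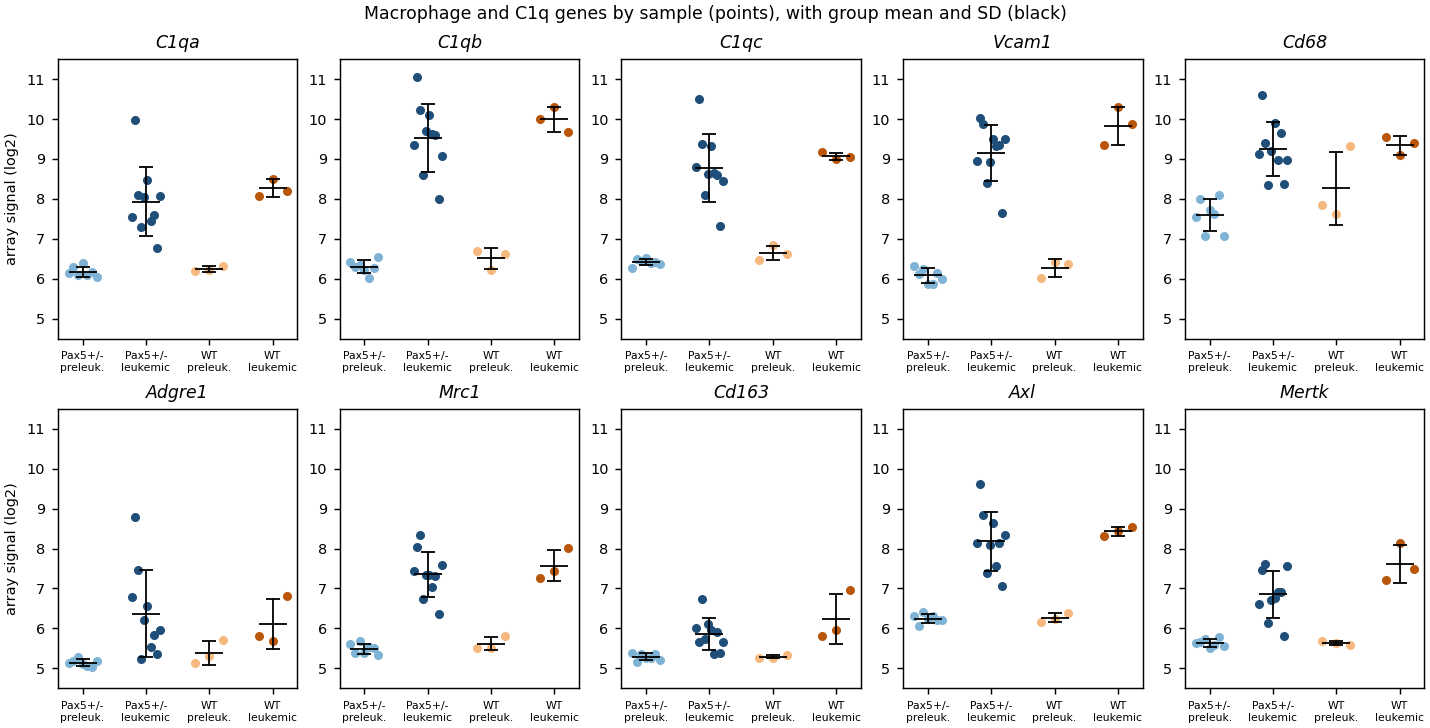
Array signal (log2, vertical axis) of each gene in every sample of the 4 groups, with the group mean and SD in black. For C1qb, C1qc and Vcam1 every leukemia of either genotype lies above every preleukemic sample, whereas WT preleukemic sample 20 reaches 9.32 for Cd68, within the leukemic range.

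C1qb encodes the B chain of C1q. Its signal ran from 7.99 through a median of 9.615 to 11.04 in the 10 Pax5+/- leukemias, and from 6.03 through 6.3 to 6.55 in the 7 preleukemic samples. The groups were separated by 1.44 on the log2 scale. The rise was 9.35-fold (log2 difference 3.22, SE 0.28, adjusted p = 5.44e-09). The C chain gene C1qc ran from 7.33 through 8.645 to 10.51 in leukemia and from 6.28 through 6.43 to 6.53 before it. It rose 5.12-fold (log2 difference 2.36, SE 0.27, adjusted p = 2.72e-07), again without overlap. The A chain gene C1qa held the smallest rise of the C1q genes, 3.39-fold (SE 0.28, adjusted p = 1.88e-05). Its signal ran from 6.76 through 7.83 to 9.97 in leukemia and from 6.04 through 6.15 to 6.39 before it. All preleukemic C1q signals were near the array medians, where background compresses differences, so the order of the 3 folds need not be that of the transcripts.

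Vcam1 rose 8.39-fold in the Pax5+/- leukemias (log2 difference 3.07, SE 0.24, adjusted p = 1.23e-09). Its signal ran from 7.66 through 9.34 to 10.02 in leukemia and from 5.86 through 6.13 to 6.32 before it. The lowest leukemia, sample 9, was still 1.34 above the highest preleukemic sample. The rise of Vcam1 had the smallest adjusted p of the 10 genes.

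Of the receptors for dying cells, Axl rose 3.82-fold (SE 0.24, adjusted p = 8.09e-07). Its signal ran from 7.06 through 8.145 to 9.61 in leukemia and from 6.07 through 6.23 to 6.4 before it, with no overlap. Mertk rose 2.32-fold (SE 0.20, adjusted p = 3.4e-05). Its signal ran from 5.82 through 6.845 to 7.6 in leukemia and from 5.52 through 5.64 to 5.78 before it. The Mertk groups were barely apart, by 0.04, and the lowest leukemia was again sample 9.

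The scavenger receptors differed in size. Mrc1, the mannose receptor CD206, rose 3.63-fold (SE 0.20, adjusted p = 8.26e-08), with signals of 6.37 through 7.335 to 8.34 in leukemia and 5.34 through 5.51 to 5.69 before it. Cd163, the receptor for haemoglobin bound to haptoglobin, rose 1.48-fold (SE 0.16, adjusted p = 0.00444). Its signal ran from 5.35 through 5.815 to 6.74 in leukemia and from 5.16 through 5.26 to 5.38 before it. The groups overlapped: leukemia 7, at 5.35, lay below the highest preleukemic sample, and the other 9 lay above all of them. The Cd163 means of both Pax5+/- groups, 5.85 and 5.29, were below every array median, so background limits this fold.

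Cd68, a glycoprotein of macrophage lysosomes, was above the array medians already before leukemia, from 7.07 through 7.63 to 8.1. In leukemia it ran from 8.35 through 9.16 to 10.6, without overlap. The rise was 3.17-fold (SE 0.28, adjusted p = 3.69e-05). Adgre1, which encodes a surface receptor used to mark mouse macrophages, ran from 5.23 through 6.085 to 8.8 in leukemia and from 5.03 through 5.14 to 5.28 before it. It rose 2.35-fold (SE 0.36, adjusted p = 0.00588). Its leukemias were the most spread of the 10 genes (SD 1.09), and leukemia 4 lay inside the preleukemic range. The preleukemic means of Adgre1, Mrc1, Cd163 and Mertk lay below every array median, so their folds may understate the change.

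Groups did not overlap for 8 of the 10 genes, and 11.7% of all genes tested were higher in every leukemia than in every preleukemic sample. For those 8 an exact two-sided permutation gave p = 0.000103, the lowest possible with 10 against 7 samples. It was 0.000206 for Adgre1 and 0.00072 for Cd163. Within samples with Xist above Eif2s3y, 5 leukemic against 3 preleukemic, all 10 differences were positive, from 0.81 for Cd163 to 3.699 for C1qb. In the samples with Xist below Eif2s3y, 5 against 4, they ran from 0.33 for Cd163 to 2.75 for C1qb. Of the first letters of the Pax5+/- mouse numbers, only L occurs at both stages, and what the letters stand for was not established. The only leukemia with that letter, sample 10, exceeded the mean of its 3 preleukemic samples for all 10 genes, by 0.36 to 3.55.

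The WT leukemias were compared with WT precursors by the same test. Here 8 of the 10 genes rose, 7 of them over 2-fold, and Vcam1 and C1qb again rose most. Over all genes, 17.9% passed as higher, 19.3% as lower and 5.84% as higher by over 2-fold. The median log2 difference was 2.00 for the 10 genes and -0.06 for all genes. For 8 of the 10 every leukemia exceeded every precursor sample, as it did for 21.1% of all genes. The exact permutation p for these 8 was 0.1, the smallest that 3 against 3 allow.

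Vcam1 stood at 9.34, 10.29 and 9.87 in WT leukemias 14, 15 and 17 and at 6.01, 6.42 and 6.36 in WT preleukemic samples 18, 19 and 20. This was an 11.9-fold rise (SE 0.40, adjusted p = 1.58e-06). C1qb stood at 10.0, 10.3 and 9.68 in leukemia and at 6.7, 6.22 and 6.61 before it. All 3 WT leukemias were far above the precursors, and the rise was 11.2-fold (SE 0.47, adjusted p = 1.32e-05). C1qc read 9.17, 8.99 and 9.04 in leukemia against 6.48, 6.84 and 6.61, a 5.36-fold rise (SE 0.45, adjusted p = 3.49e-04). C1qa read 8.08, 8.51 and 8.21 against 6.19, 6.23 and 6.33, a 4.05-fold rise (SE 0.47, adjusted p = 0.00227). The order of the folds, B chain, C chain and A chain, was that of the Pax5+/- mice, and it was not tested. Without WT samples 15, 17 and 20 together, which leaves leukemia 14 alone, the C1qa log2 difference was 1.87, against 2.02 with all samples.

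Axl read 8.32, 8.44 and 8.53 in WT leukemia against 6.17, 6.24 and 6.39, a 4.48-fold rise (SE 0.40, adjusted p = 3.34e-04). Mertk read 7.21, 8.15 and 7.48 against 5.69, 5.63 and 5.59, a 3.94-fold rise (SE 0.34, adjusted p = 1.54e-04). Mrc1 read 7.26, 7.44 and 8.01 against 5.52, 5.52 and 5.8, a 3.88-fold rise (SE 0.33, adjusted p = 1.24e-04). None of these 3 receptor genes overlapped between the WT stages. Cd163 read 5.8, 5.96 and 6.95 against 5.27, 5.26 and 5.33, a 1.93-fold rise (SE 0.27, adjusted p = 0.00885) in which leukemia 17 stood highest. Without leukemia 17 the log2 difference of Cd163 was 0.59 (adjusted p = 0.0733), with sex as a covariate 0.68 (adjusted p = 0.0871), and with the WT groups fitted alone the adjusted p was 0.0523. Without WT samples 15, 17 and 20 together, which leaves a single WT leukemia, the difference was 0.535.

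Cd68 and Adgre1 did not pass in WT mice. Cd68 read 9.56, 9.09 and 9.39 in leukemia against 7.84, 7.63 and 9.32 before it, a log2 difference of 1.08 (95% interval 0.11 to 2.05, adjusted p = 0.0716). The precursor sample at 9.32 is sample 20, with its high neutrophil markers. Without it the Cd68 difference was 1.61 (adjusted p = 0.00905). Without 15, 17 and 20 together, which leaves a single WT leukemia, the Cd68 difference was 1.825. Cd68 also passed with array weights (1.39, adjusted p = 0.00316) and without Pax5+/- leukemia 2 (1.08, adjusted p = 0.0392). Leukemia 2 enters the WT comparison only through the spread, which the fit shares over all groups. With sex as a covariate the Cd68 difference was 0.68. Adgre1 read 5.8, 5.69 and 6.82 in leukemia against 5.14, 5.31 and 5.72, a log2 difference of 0.71 (95% interval -0.54 to 1.97, adjusted p = 0.357). With sex as a covariate it was -0.02, but that sex term comes from the Pax5+/- mice alone.

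**Figure D2:**
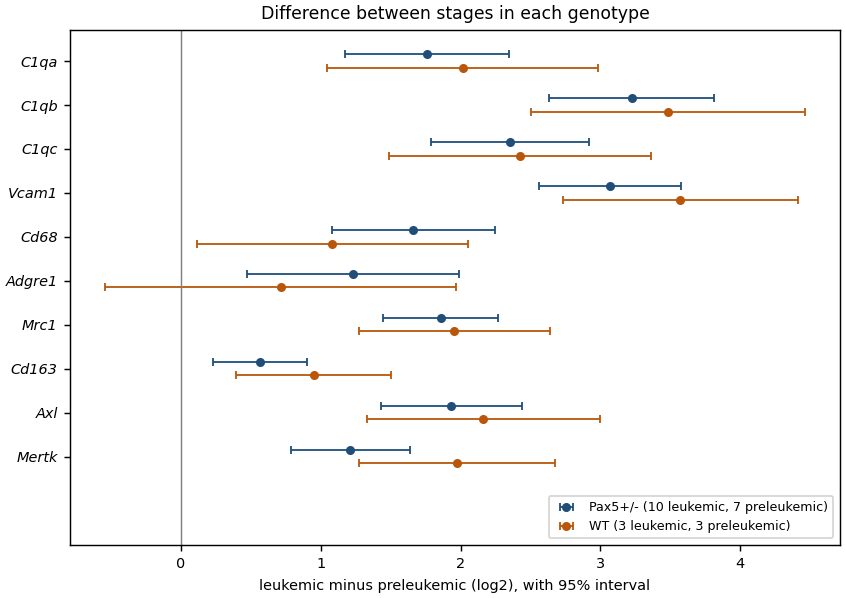
Leukemic minus preleukemic log2 difference of each gene in Pax5+/- (blue) and WT mice (orange), with the 95% interval of the fit. All 10 Pax5+/- intervals lie above 0, and the WT interval of Adgre1 spans 0.

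The next question was whether the genotypes differed at either stage. Before leukemia, 0 of the 10 genes passed in limma and 0 had an unadjusted p below 0.05, while 0.624% of all genes passed. Differences ran from -0.67 for Cd68 (95% interval -1.49 to 0.15) to 0.002 for Mertk (-0.59 to 0.60). Among leukemias, again 0 genes passed in limma, and 0.341% of all genes did. There 2 genes had an unadjusted p below 0.05, both lower in Pax5+/- leukemias. These were Mertk, with a log2 difference of -0.76 (95% interval -1.33 to -0.20, adjusted p = 0.502), and Vcam1, with -0.68 (-1.36 to -0.003, adjusted p = 0.843). At each stage 9 of the 10 genes had the lower mean in Pax5+/- samples, the exceptions being Mertk before leukemia and Adgre1 in leukemia. One of these differences, Cd163 before leukemia, was only -0.001. The genes correlated over the Pax5+/- leukemias, as given below, so their signs are not independent and were not tested. The order of the 4 group means for C1qb was WT leukemic (9.99 ± 0.31, SD, n = 3), Pax5+/- leukemic (9.53 ± 0.86, n = 10), WT preleukemic (6.51 ± 0.26, n = 3) and Pax5+/- preleukemic (6.31 ± 0.16, n = 7), and the neighbours within a stage did not differ beyond their spread.

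The difference between the stage effects of the genotypes was tested as an interaction. It passed for 0 of the 10 genes in limma, and 0 had an unadjusted p below 0.05. Of all genes 0.0965% passed. The smallest adjusted p was 0.728, for Mertk, whose stage difference was 0.76 smaller in Pax5+/- mice on the log2 scale (95% interval for Pax5+/- minus WT, -1.58 to 0.06). For C1qb the interaction was -0.26 (95% interval -1.40 to 0.88) and for Vcam1 -0.50 (-1.48 to 0.48). These intervals are wide, and they do not show that the genotypes acted alike.

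The 10 Pax5+/- leukemias differed among themselves by more than 3 units of log2 for C1qa, C1qb, C1qc and Adgre1. Leukemia 2 held the highest signal of 7 genes, C1qa, C1qb, C1qc, Vcam1, Cd68, Adgre1 and Axl. Leukemia 3 held the highest of the other 3, Mrc1, Cd163 and Mertk. Leukemia 9 was the lowest for 7 genes, leukemia 4 for Cd68 and Adgre1, and leukemia 7 for Cd163. C1qa, C1qb, C1qc, Vcam1 and Axl thus shared both their highest leukemia, 2, and their lowest, 9.

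All 45 pairs of the 10 genes correlated positively over these leukemias, with a median Pearson r of 0.826 and a range of 0.198 to 0.971. By permutation with adjustment over the 45 pairs, 35 passed, each with r of at least 0.674. Over all pairs of tested genes in the same leukemias the median r was 0.02, and 3.2% of pairs had an r of at least 0.674. This share is a description, and the 10 genes were not tested against it. Of the 35, 32 kept an r above 0.5 when the 2 leukemias farthest from the median of the pair's first gene were left out. C1qb and C1qc were the closest pair (r = 0.971, Spearman rho = 0.915, r = 0.924 without 2 leukemias). Their difference had an SD of 0.21 over the 10 leukemias, while each gene alone had an SD of 0.86 and 0.84. In the 3 WT leukemias the SD of that difference was 0.345, and it was 0.232 for C1qb and C1qa and 0.306 for C1qc and C1qa, so C1qb and C1qc were not the closest there. Cd163 passed with only 1 of its 9 partners, Mrc1 (r = 0.674, adjusted permutation p = 0.0427), and r fell to 0.098 without leukemias 9 and 3. For Cd163 and C1qa r was 0.198 (adjusted permutation p = 0.548). The mouse number letters hold 5, 4 and 1 of the leukemias, too few for values within a letter.

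**Figure D3:**
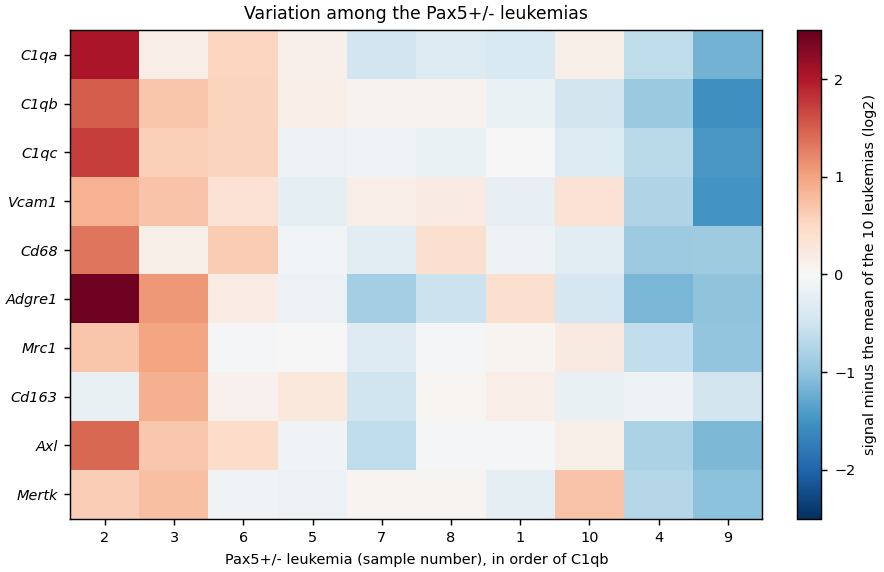
Signal of each gene in the 10 Pax5+/- leukemias minus the gene's mean over them (log2, colour), with leukemias ordered by C1qb. Leukemia 2 is high and leukemia 9 low for most genes, and Cd163 is highest in leukemia 3.

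Likeness to the 10 genes was measured as Pearson r over the same 10 leukemias among 14724 other genes, as a description without a test. The genes most like the mean of the C1q chains were Afdn (r = 0.976), Sdc3 (0.967), Pld3 (0.953), Ms4a7 (0.951) and Dram2 (0.951). Sdc3 is a syndecan, Pld3 a lysosomal nuclease and Ms4a7 a membrane protein of macrophages. The Afdn signal spanned only 5.45 to 6.3, whereas Sdc3 spanned 6.91 to 9.99. Those most like Vcam1 were Cldn15 (0.959), Itgav (0.955), Nid1 (0.95), Limch1 (0.941) and Adamts9 (0.937), of which Itgav encodes an integrin subunit and Nid1 a basement membrane protein. Of these 5 only Nid1 ranged over more than 1 log2 unit. Mapk14 (0.968), Sdc3 (0.965), Cfp (0.958), Adap2 (0.953) and Acp2 (0.946) were most like Axl. Cfp, complement properdin, spanned 7.19 to 12.12, and Mapk14 only 9.42 to 10.14. Those most like Mrc1 were Tbc1d10a (0.949), Nfkbia (0.922), Spic (0.92), Wasl (0.914) and Igf1 (0.903), among which Spic encodes the transcription factor of iron-recycling macrophages. Tbc1d10a spanned only 7.4 to 7.57 and Wasl only 8.72 to 9.02.

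Other genes of the same biology were described by list, to be read against the 28.0% of all genes that rose and 36.5% that fell in Pax5+/- leukemia and the 17.9% and 19.3% in WT leukemia. Of 21 tested complement components, regulators and receptors outside C1q, 11 rose and 1 fell in Pax5+/- leukemia, with a median log2 difference of 0.55. In WT leukemia 5 rose and 1 fell, with a median of 0.34, a share of rises near that of all genes. Serping1, the inhibitor of the C1 proteases, rose 13.5-fold in Pax5+/- mice (SE 0.28, adjusted p = 5.25e-10) and 23.1-fold in WT mice (SE 0.47, adjusted p = 4.5e-07). Its preleukemic means lay below every array median. Cd55, which breaks up complement convertases on the cell surface, fell by 2.61 and 2.24 on the log2 scale, to means below every array median. C1qbp, a protein first found by its binding to C1q and located mainly in mitochondria, rose 2.35-fold and 2.81-fold. The receptor Lrp1 rose 2.65-fold in Pax5+/- mice and 2.00-fold in WT mice. C1s1, a protease of the C1 complex, rose by 0.57 and 0.99 on the log2 scale, and C2 had differences of 0.08 and 0.11 that did not pass.

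Of 25 genes for the clearance of dying cells, 18 rose and 3 fell in Pax5+/- leukemia (median 0.97), and 13 rose and 2 fell in WT leukemia (median 0.62). Pros1, which encodes protein S, a bridging ligand of MERTK, rose by 1.20 in Pax5+/- and 1.15 in WT mice on the log2 scale. Gas6, whose product binds AXL and MERTK, rose by 0.62 in Pax5+/- mice, and its WT difference of 0.54 did not pass (adjusted p = 0.227). The related receptor Tyro3 had log2 differences of -0.06 and -0.01, neither passing. Thbs1, thrombospondin, rose by 4.42 and 3.83 on the log2 scale and is also a platelet product. Stab2, a scavenger receptor of sinusoidal endothelium, rose by 1.54 and 1.78, and the engulfment adaptor Elmo1 by 1.10 and 0.77. Abca1, a cholesterol exporter, fell by 1.46 on the log2 scale in Pax5+/- leukemia, and its WT difference of -0.58 did not pass (adjusted p = 0.276). Dock2, a Rac activator of blood cells, fell by 0.29 and 0.57.

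Of 20 genes of marrow resident and erythroblastic island macrophages, 12 rose and 2 fell in Pax5+/- leukemia (median 0.93), and 10 rose and 0 fell in WT leukemia (median 0.94). The iron exporter Slc40a1, ferroportin, rose 5.61-fold and 4.92-fold from means below every array median. Transferrin, Trf, rose 4.68-fold and 9.38-fold. Dnase2a, the lysosomal nuclease that digests engulfed erythroblast DNA, rose 2.13-fold and 2.12-fold. Spic rose by 0.98 and 1.26 on the log2 scale and Hmox1, haem oxygenase, by 1.32 in Pax5+/- mice (in WT mice it did not pass, adjusted p = 0.0701). Siglec1, the sialoadhesin CD169 of these macrophages, did not pass in either genotype (0.30, adjusted p = 0.106, and 0.57, adjusted p = 0.0902). Blvrb, biliverdin reductase B, fell by 2.44 in Pax5+/- leukemia, and its WT difference of -1.01 did not pass (adjusted p = 0.073).

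Of 23 lysosomal and phagocytic genes, 14 rose and 1 fell in Pax5+/- leukemia (median 0.48), and 8 rose and 0 fell in WT leukemia (median 0.28). Cathepsin D, Ctsd, rose 3.57-fold and 2.26-fold, and the hexosaminidase subunit Hexa 2.61-fold and 2.20-fold. Fcer1g, the signalling chain of Fc receptors, rose 11.0-fold and 4.79-fold (WT adjusted p = 0.0201). Of 11 integrin partners of VCAM-1 and marrow retention genes, 4 rose and 3 fell in Pax5+/- leukemia (median 0.33), and 3 rose and 3 fell in WT leukemia (median -0.04), shares near those of all genes. Itga4 and Itgb1 encode the integrin that binds VCAM-1. Itgb1 rose 2.55-fold and 1.71-fold, and Itga4 rose by 0.33 on the log2 scale in Pax5+/- mice, with a WT difference of 0.32 that did not pass. The chemokine Cxcl12 rose 3.26-fold and 4.25-fold, whereas its receptor Cxcr4 fell by 0.92 and 0.88 and the adhesion receptor Cd44 by 1.54 and 1.45.

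**Figure D4:**
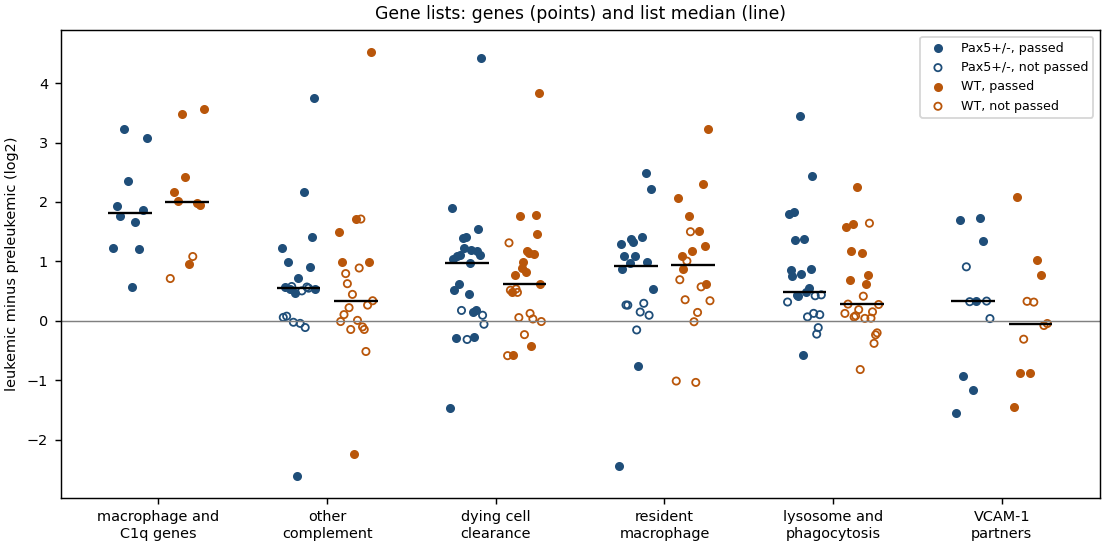
Leukemic minus preleukemic log2 difference of each tested gene, by list, in Pax5+/- (blue) and WT mice (orange), with filled points passing an adjusted p of 0.05 and a line at the list median. The 10 macrophage and C1q genes have medians of 1.81 and 2.00, and the 5 other lists drawn have medians from -0.04 to 0.97, while marker lists of other cell types, some with larger medians, are not drawn.

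Neutrophil, megakaryocyte and stroma markers had median stage differences in the same direction as the macrophage genes. In Pax5+/- leukemia, where 28.0% of all genes rose, 11 of 14 neutrophil markers rose (median log2 difference 1.95), 10 of 12 stroma and endothelium markers rose and 1 fell (median 1.07), and all 5 megakaryocyte and platelet markers rose (median 2.92). The monocyte, dendritic, T and NK cell shares were below that of all genes. Of 12 monocyte markers 3 rose and 0 fell: Csf1r, the receptor for macrophage colony-stimulating factor (5.36-fold), Ms4a6c (5.54-fold) and Cx3cr1 (1.41-fold). Of 11 dendritic cell and 11 T and NK cell markers 2 each rose, and of 6 erythroid markers 0 rose and 1 fell. Of 11 pro-B and pre-B cell markers 7 fell and 0 rose. In WT leukemia, where 17.9% of all genes rose, the megakaryocyte median was 2.93, with 5 of 5 markers higher, and the stroma median 1.06, with 9 of 12 higher. The neutrophil median was 2.05, although 1 of 14 markers passed. The WT leukemias had neutrophil means of 9.37 to 10.3, against 6.49 and 6.53 in samples 18 and 19 and 10.6 in sample 20. Of the other WT markers 1 of 12 monocyte and 2 of 6 erythroid markers rose, and 9 pro-B and pre-B cell markers and 1 stroma marker fell, while 0 of 11 dendritic cell and 0 of 11 T and NK cell markers passed in limma, 2 of each having an unadjusted p below 0.05.

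Neutrophil marker means and C1qb did not order all samples alike. Pax5+/- leukemias 4 and 7 had neutrophil means of 6.17 and 6.45, inside the preleukemic range, but C1qb signals of 8.6 and 9.62 and Vcam1 signals of 8.4 and 9.32, above every preleukemic sample. WT preleukemic sample 20, with a neutrophil mean of 10.6 and a monocyte mean of 7.63, read 6.61 for C1qb and 6.36 for Vcam1, inside the range of the other preleukemic samples. In that sample only Cd68 (9.32) and Adgre1 (5.72) of the 10 genes lay inside the range of the WT leukemias. The stroma means were 6.89 to 8.05 in Pax5+/- leukemias and 6.33 to 6.45 in the preleukemic samples, and the megakaryocyte means 8.25 to 11.2 and 6.52 to 6.75. Neither overlapped between the stages. The part of neutrophils, stroma or megakaryocytes in the rises was not tested.

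**Figure D5:**
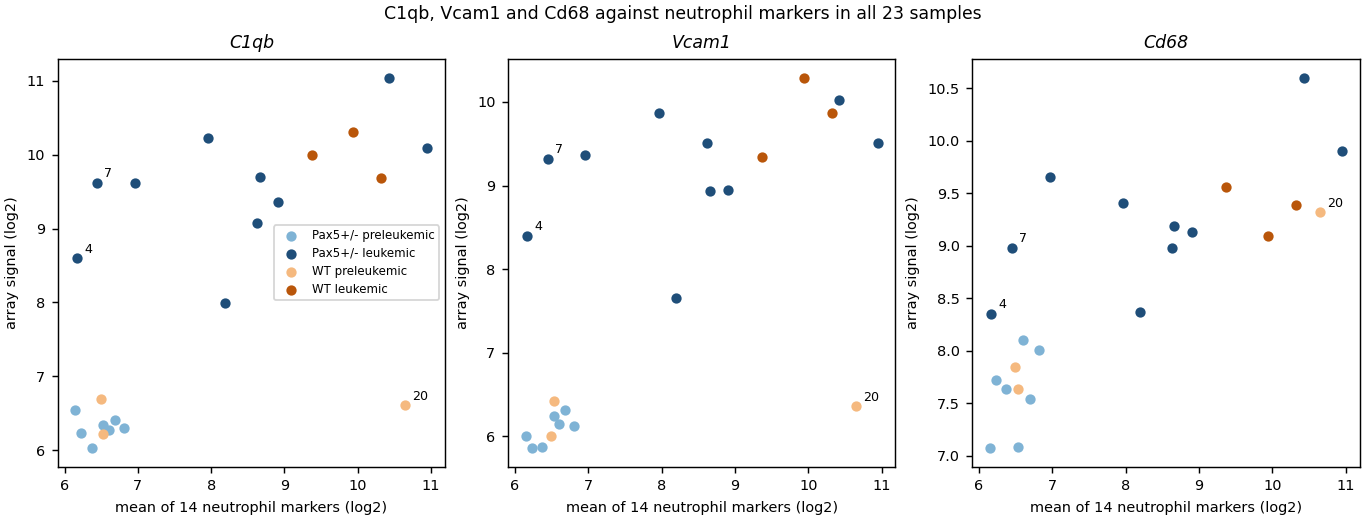
Array signal (log2) of C1qb, Vcam1 and Cd68 against the mean of 14 neutrophil markers (log2) in all 23 samples, coloured by group, with samples 4, 7 and 20 numbered. WT preleukemic sample 20 lies with the leukemias for Cd68 but not for C1qb or Vcam1.

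Over the 10 Pax5+/- leukemias, C1qb and Vcam1 were each related to 8 marker means, 16 relations in all. The 2 leukemias left out below were those farthest from the gene's own median, 2 and 9 for C1qb but 4 and 9 for Vcam1. Values of r without them therefore cannot be set against each other between the genes. Vcam1 and the stroma mean passed (r = 0.854, adjusted permutation p = 0.032), with r = 0.71 without 2 leukemias, although Spearman's rho of 0.839 did not (adjusted permutation p = 0.0602). C1qb and the monocyte mean had r = 0.771 (adjusted permutation p = 0.0699), and r was 0.509 without 2 leukemias. For C1qb and the stroma mean r was 0.65 and fell to -0.03 without 2 leukemias. For C1qb and the T and NK cell mean r was 0.657 (adjusted permutation p = 0.171) and 0.272 without 2 leukemias. Spearman's rho for that relation was 0.806 (adjusted permutation p = 0.0602). With the megakaryocyte mean, r was 0.202 for C1qb and 0.303 for Vcam1, neither passing (adjusted permutation p = 0.717 and 0.631). With the neutrophil mean, r was 0.509 for C1qb and 0.366 for Vcam1, neither passing (adjusted permutation p = 0.358 and 0.602). The stroma list holds no gene of the 10 described here.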

How the data were processed

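Total RNA of 23 marrow samples was extracted with Trizol, labelled with biotin and read on arrays of 1 colour, according to the labels. The authors deposited probe set signals as log2 values. Transcriptome Analysis Console is named per the submitters' processing notes. Background correction, summarization and normalization are not given in the sources used here.

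Of 28944 probe sets, 21789 had 1 symbol in the platform annotation, 1621 several and 5534 none. The highest-mean probe set of each symbol was kept, and genes that exceeded their array's 30th percentile on 3 or more arrays were tested. A limma fit (version 3.58.1, R 4.3.3, eBayes with trend) covered all 4 title groups. Its two-sided p-values were adjusted by Benjamini and Hochberg's method over the 15542 genes, with a threshold of 0.05. Pairs of genes were tested by permutation with 100000 resamples. The fit was tested on simulated data. Each mouse gave 1 sample, so p-values measure the spread between mice. The limma fit shares 1 estimate of that spread per gene over all 4 groups, whose spreads were unequal. For C1qa the SD was 0.87 in Pax5+/- leukemic and 0.13 in Pax5+/- preleukemic samples, and 0.22 and 0.07 in the WT leukemic and preleukemic samples. Comparisons between the other groups thus also rest on the spread among Pax5+/- leukemias.

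The 10 genes, the gene lists and the tests were chosen with earlier results of these data known. Genes named beyond the 10 were, by rule, up to 4 passing genes of smallest p per list and contrast and the 5 genes most like each pattern over the Pax5+/- leukemias. C1s1, C2, Pros1, Gas6, Tyro3, Abca1, Spic, Hmox1, Siglec1 and Itga4 were named after their values were seen. So were Dock2, Stab2, Elmo1, Fcer1g, Cxcr4 and Blvrb in the genotype where the rule did not name them. Alternatives were other filters, priors, array weights, scalings and probe sets, sex as a covariate, mouse number letter as a random block, the groups of a contrast alone, and samples left out. Figures were drawn with matplotlib 3.10.9.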

Additional observations from a re-analysis of the deposited data

Results flagged for a closer look

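C1qa in Pax5+/- leukemia 2 read 9.97 on the log2 scale, far from the other 9 leukemias, the next of which read 8.47. The gap divided by the range of the group was 0.467, just above the critical value of 0.466. This was the only such sample among 20 groups of values checked, and chance alone gives about 1 in 20.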

How the results depend on the processing

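No result changed direction between alternatives among those that passed. The count of the 10 genes that passed in Pax5+/- leukemia was 9 to 10 over the alternatives, 9 where the filter at the 50th percentile removed Cd163, and 10 with any sample left out. In WT leukemia it was 7 to 9, both over the alternatives and with each sample left out. It was 0 for the genotypes at either stage and for the interaction throughout. The number of correlated pairs was 30 to 34 with other scalings or rho, and 27 to 37 with each leukemia left out. The random block for mouse number letter had a correlation of -0.0441 and changed no call among the 10 genes. All WT samples share the letter W, and of the Pax5+/- letters only L occurs at both stages. The block can therefore show little about the stage calls.

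Counts over all genes moved more. With array weights 210 genes were higher and 234 lower between the genotypes before leukemia, against 36 and 61, in leukemia 20 and 107 against 4 and 49, and for the interaction 50 and 32 against 15 and 0. With the groups of a contrast alone the counts were 2000 and 1537 for WT leukemia against 2783 and 2997, 76 and 155 for the genotypes before leukemia, and 1 and 0 in leukemia, and sex as a covariate left 3 and 17. The random block gave 57 and 101 before leukemia and 11 and 77 in leukemia. Without WT leukemia 14 the genotypes differed by 12 and 148 genes in leukemia, without 15 by 0 and 0 and without 17 by 2 and 3, and the interaction counts without 14 and 15 were 24 and 74, and 9 and 0. Without WT preleukemic sample 18 or 19 the counts for WT leukemia were 1878 and 1950, or 1997 and 1797. Without 19 they were 11 and 29 for the genotypes before leukemia and 6 and 0 for the interaction, and without 20 the interaction counts were 29 and 7. Signals near background limit the folds of Adgre1, Mrc1, Cd163 and Mertk.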
